A study of Homo sapiens with 6 samples.

Results

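The tubulin genes measured in this knockdown experiment were examined here, together with the antisense RNA of TUBA1B, the most abundant of them per transcript length. They are 4 alpha-tubulin genes (TUBA1A, TUBA1B, TUBA1C and TUBA4A), 5 beta-tubulin genes (TUBB, TUBB2A, TUBB3, TUBB4B and TUBB6) and the long non-coding RNA TUBA1B-AS1, so 10 of the 62438 genes in the count table. The set was chosen because TUBA1B-AS1 was among the largest rises in this very comparison, and the tubulins were set beside it. Its fold changes are therefore given as a description, with no p-value for any of the 10 genes.

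The cells carry the label MDA-MB-453, which names a breast cancer line of human origin. They received 10 nM of an siRNA against N6AMT1, a methyltransferase gene (si-N6AMT1, 3 libraries), or 10 nM of a scrambled siRNA (si-CN, 3 libraries), and per the labels were harvested after 48 h. Both groups therefore went through lipid transfection, and no untransfected cells were analysed here. The libraries are triplicates of 1 cell line, so the spread between them may be largely technical. Library totals ran from 19739247 to 21289740 estimated counts. Levels are given as CPM, counts scaled to library size, and 1 CPM is 19.7 to 21.3 counts. Counts were compared with edgeR's quasi-likelihood test over 17320 genes, and a gene was called at a Benjamini-Hochberg adjusted p (FDR) under 0.05. N6AMT1 itself fell from 6.81 ± 0.145 to 3.18 ± 0.312 CPM (SD, n = 3 each), a log2 fold change of -1.098 ± 0.12 (SE, edgeR FDR = 3.65e-07). The 7 luminal and HER2 markers reported here summed to 1429 to 1464 CPM in si-CN and 1483 to 1503 CPM in si-N6AMT1, mostly KRT8, KRT18 and EPCAM. The sum thus says little of ERBB2, FOXA1 and GATA3, which were at 53.7, 8.42 and 2.67 CPM in si-CN. However, KRT19 was at 0.377 to 0.683 CPM, whereas the basal keratins KRT5, KRT14 and KRT17 summed to 3689 to 3774 CPM in si-CN and 3737 to 3824 CPM in si-N6AMT1. The line is usually described as luminal rather than basal, and in that respect the libraries went against their label, so they are called here by that label only. KRT8, KRT18, KRT5 and KRT14 rose by 0.12, 0.076, 0.11 and 0.18 on the log2 scale (edgeR FDR = 0.00013, 0.015, 0.00052 and 0.00021). KRT17 was not called (log2 -0.016, edgeR FDR = 0.61), and EPCAM fell by 0.12 (edgeR FDR = 0.00079), and their part in the tubulin values was not tested. Fibroblast markers, chiefly COL1A1, summed to 53.0 to 56.2 CPM in si-CN and 54.3 to 57.4 in si-N6AMT1, neuronal markers to 5.50 to 6.88 CPM over all libraries, and leukocyte markers to at most 0.203 CPM.

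Tubulin is the dimer of 1 alpha and 1 beta chain from which microtubules are built. Vertebrates carry several genes for each chain, called isotypes, whose proteins differ mainly at the tail. Cells keep tubulin messages in balance with free tubulin protein: when free dimer is in excess, the factor TTC5 recognises the first residues of a nascent tubulin chain, and the message is degraded on the ribosome. An antisense RNA is read from the opposite strand of a gene, and a divergent pair of this kind often starts from 1 shared promoter region.

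TUBA1B-AS1 and TUBA1B are such a pair. In RefSeq annotation of GRCh38.p14, TUBA1B starts on the minus strand and TUBA1B-AS1 on the plus strand, with 210 bases between both starts (chr12:49131396-49131605). These bases are shown because the RefSeq starts of both genes lie at their edges. They are written 5′ to 3′ on the TUBA1B strand, with every match to the GC box letters GGGCGG or CCGCCC in capitals. The first base printed thus lies beside the TUBA1B-AS1 start and the last beside the TUBA1B start. The label names the pair of genes and not the direction of reading.
TUBA1B to TUBA1B-AS1: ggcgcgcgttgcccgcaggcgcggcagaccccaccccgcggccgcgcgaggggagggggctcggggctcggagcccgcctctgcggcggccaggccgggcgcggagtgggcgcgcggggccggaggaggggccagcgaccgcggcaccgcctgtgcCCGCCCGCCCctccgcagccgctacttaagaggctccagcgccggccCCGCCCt
The stretch held 83.3% G or C and 3 GC box matches, of which 2 overlap within the first capital run. Over all 35116 RefSeq promoter windows, 42.6% held at least 1 GC box on either strand in the 250 bases before the start. The stretch shown is 210 bases, so the lengths searched differ. A letter match is no measurement of binding.

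In GENCODE v44 annotation of GRCh37, the build of the deposited counts, TUBA1B lies at chr12:49521565-49525180 on the minus strand. TUBA1B-AS1 lies at chr12:49521565-49582267 on the plus strand, with 10 annotated transcripts that together cover 4620 exonic bases. Some of these exons lie within the TUBA1B span, so not every annotated transcript begins at the RefSeq start. Of these bases, 1571 (34.0%) lie opposite exons of TUBA1B, and a further 68 (1.47%) lie opposite exons of TUBA1A, whose gene spans chr12:49578469-49582863. TUBA1C is annotated at chr12:49582519-49668383 on the plus strand, so 3 alpha-tubulin genes and the antisense RNA share 1 cluster. The other 6 genes lie elsewhere, at chr2:220114432-220142624 (TUBA4A), chr6:30685212-30693315 (TUBB), chr6:3153731-3157778 (TUBB2A), chr16:89987800-90005169 (TUBB3), chr9:140135739-140138159 (TUBB4B) and chr18:12307668-12344319 (TUBB6).

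The first 60 coding bases of the 5 beta-tubulin genes are shown because they hold the message for the chain start that TTC5 reads, and because they show how alike the isotypes are. They come from the GENCODE reference transcripts, with the first 12 bases in capitals.
TUBB: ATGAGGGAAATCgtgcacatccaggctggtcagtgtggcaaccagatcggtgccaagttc
TUBB2A: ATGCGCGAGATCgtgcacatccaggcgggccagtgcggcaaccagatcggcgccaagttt
TUBB3: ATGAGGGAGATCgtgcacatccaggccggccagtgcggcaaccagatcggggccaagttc
TUBB4B: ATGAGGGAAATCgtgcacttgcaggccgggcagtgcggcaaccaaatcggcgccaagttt
TUBB6: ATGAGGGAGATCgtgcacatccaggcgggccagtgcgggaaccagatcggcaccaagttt
Any 2 of these genes differed at 4 (TUBB2A and TUBB6) to 8 of the 60 bases. Over the whole coding sequence, TUBA1B was 97.2% identical to TUBA1A, 96.8% to TUBA1C and 85.7% to TUBA4A. Beta isotypes were 80.9% (TUBB and TUBB6) to 87.7% (TUBB2A and TUBB3) identical to each other, and alpha and beta genes 53.4% to 55.8%.

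This likeness bears on every value that follows. The authors' counts come from kallisto, which assigns reads by short words of sequence and divides shared reads by an estimate. They were made with an earlier GENCODE release than the v44 used here, so the shares of words in counting may differ. Of the 31-base words in TUBA1B transcripts, 49.3% were found in no other gene on either strand, 31.4% were shared with another gene on the same strand, and 40.1% with TUBA1B-AS1 on the opposite strand. For TUBA1B-AS1, 51.3% of words were its own and 32.6% matched TUBA1B in reverse, with 13.4% matching TUBA1A and 11.7% TUBA1C in reverse. A further limit is that 19.3% of its words were shared with other genes on the same strand, which strand cannot separate. The largest such share, 5.18%, was with the long non-coding RNA ENSG00000258232. The kit keeps strand, but whether strand was used in counting is not given in the sources used here. Without it, reads of TUBA1B and TUBA1B-AS1 over shared exons cannot be told apart. The share of own words was 65.7% for TUBA1A, 60.8% for TUBA1C, 75.2% for TUBA4A, 70.0% for TUBB, 61.2% for TUBB2A, 70.4% for TUBB3, 79.8% for TUBB4B and 78.2% for TUBB6.

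All 10 genes passed the filter on low counts. TUBA1B-AS1 had 247, 368 and 333 counts in the si-N6AMT1 libraries (replicates 1 to 3) and 80, 29 and 211 in the si-CN libraries. Scaled for depth, this was 12.5, 18.0 and 16.2 CPM in si-N6AMT1 and 4.07, 1.47 and 9.95 CPM in si-CN. Every si-N6AMT1 library was above every si-CN library, but the control libraries themselves were far apart, with replicate 3 the highest and replicate 2 the lowest. The group means were 15.6 ± 2.84 and 5.17 ± 4.34 CPM (SD, n = 3 each), and the fitted ratio was 2.96-fold (log2 1.56 ± 0.27, SE). By log2 fold change it ranked as number 6 of the 17320 genes. None of the 1452 genes called higher at its level or above had a larger fold change. TUBA1B-AS1 was chosen for its rise, so both orders were largely fixed in advance. The 5 genes above it were ENSG00000279809, ENSG00000259171, ENSG00000274944, RNASEK-C17orf49 and H3P6, with means of 1.08 to 4.38 CPM in si-N6AMT1.

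The spread of TUBA1B-AS1 was unusual for its level. Its SD within groups was 0.99 on the log2 scale, whereas the median over the 3202 genes with a mean of 5 to 20 CPM was 0.096. Only ENSG00000273590 and the read-through gene DUS4L-BCAP29 spread more in that range (named after their values were seen). The fold change moved with the control libraries: log2 2.49 without si-CN replicate 3 and 1.13 without si-CN replicate 2. DESeq2 gave a like estimate of 1.59 with an SE of 0.74, and did not call it. The smaller SE of 0.27 from edgeR was derived from its F value and is no measure of this spread between libraries.

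TUBA1B, the main alpha-tubulin gene of these cells, moved the other way and by little. Its counts were 16132, 16978 and 17180 in si-N6AMT1, or 814, 832 and 838 CPM. In si-CN they were 18057, 17782 and 19212, or 920, 903 and 906 CPM. The groups did not overlap. Means were 828 ± 12.4 and 910 ± 8.94 CPM (SD, n = 3 each), a difference of -9.0% (log2 -0.14 ± 0.02, SE). The difference between group means, si-N6AMT1 minus si-CN, was -81.8 CPM for TUBA1B and 10.4 CPM for TUBA1B-AS1. Antisense counts amounted to 1.53%, 2.17% and 1.94% of TUBA1B counts in si-N6AMT1 and to 0.443%, 0.163% and 1.098% in si-CN. If both genes were counted as 1, their sum was 843 ± 14.9 CPM in si-N6AMT1 and 915 ± 9.69 CPM in si-CN (SD, n = 3 each), still without overlap (log2 -0.12 ± 0.02, SE).

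**Figure D1:**
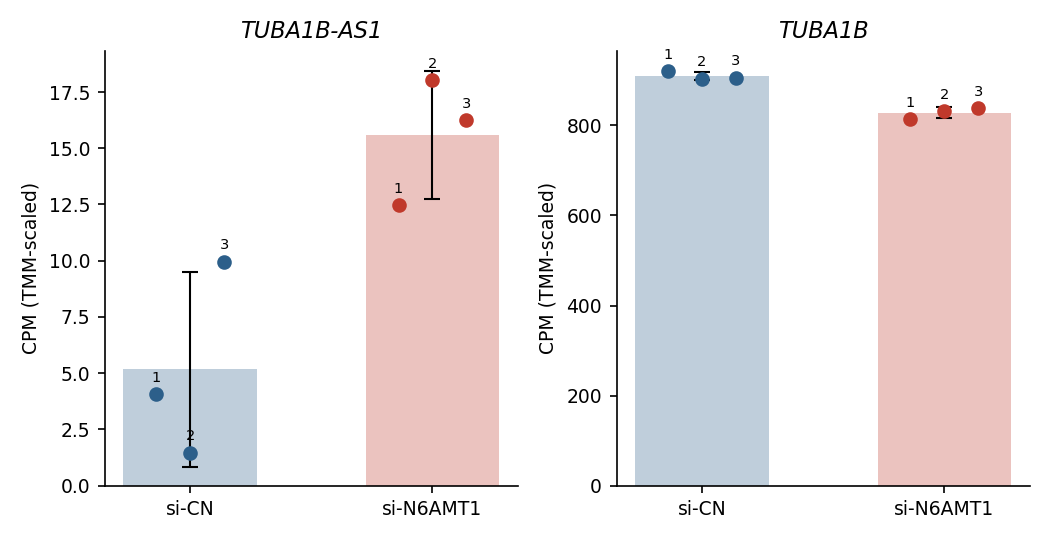
Vertical axes give CPM scaled by TMM, with the antisense RNA on the left and its sense gene on the right, each on its own axis from 0. Points are the numbered libraries, bars the mean and whiskers the SD of 3 libraries. The antisense RNA ranged from 1.47 to 9.95 CPM in si-CN and from 12.5 to 18.0 CPM in si-N6AMT1, while TUBA1B differed by 9.0% with tight replicates.

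Among the other alpha genes, TUBA1A, the isotype best known from neurons, had 62.8, 62.1 and 62.4 CPM in si-N6AMT1 against 75.8, 69.4 and 68.7 in si-CN. Its si-N6AMT1 libraries were all lower, by 12.4% (log2 -0.19 ± 0.04, SE). TUBA1C, a broadly expressed isotype, had 333, 340 and 355 CPM in si-N6AMT1 against 323, 327 and 318 in si-CN. It was the only tubulin with every si-N6AMT1 library above si-CN, by 6.2% (log2 0.086 ± 0.025, SE), and it was no longer called without si-N6AMT1 replicate 3 (0.060) or si-CN replicate 3 (0.077). TUBA4A, encoded apart from the cluster, had 215, 217 and 213 CPM against 214, 211 and 217, with groups that overlapped (log2 0.0025 ± 0.023, SE). By these estimated counts the genes of the cluster did not move together: TUBA1A and TUBA1B were lower, and TUBA1C was higher. Whether the division of shared reads had a part in the opposite directions was not tested. Since TUBA1A, TUBA1B and TUBA1C share words, their counts were also summed, to 1233 ± 23.0 CPM in si-N6AMT1 and 1304 ± 13.4 CPM in si-CN (SD, n = 3 each). This sum did not overlap between groups either (log2 -0.081 ± 0.020, SE). Adding the alpha-tubulin pseudogenes left it at -0.081, but they held almost no counts and could not have moved it.

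The beta genes differed less. TUBB, the most abundant beta isotype, had 907, 916 and 919 CPM in si-N6AMT1 against 950, 959 and 940 in si-CN. The groups did not overlap, yet the difference was -3.7% (log2 -0.055 ± 0.020, SE), and it was called under only 3 of 12 alternatives. TUBB4B, the second broadly expressed beta isotype, had 542, 538 and 539 CPM against 545, 532 and 558. TUBB6 had 76.7, 78.0 and 79.7 CPM against 81.5, 76.5 and 78.6. Both overlapped between groups, with log2 values of -0.014 ± 0.022 and -0.013 ± 0.033 (SE). TUBB2A had 17.5, 15.4 and 16.3 CPM against 16.5, 16.6 and 18.7 (log2 -0.075 ± 0.071, SE). TUBB3, a neuronal isotype often followed in tumours treated with taxanes, had 17.7, 16.5 and 18.1 CPM against 17.2, 17.3 and 18.1 (log2 -0.0075 ± 0.064, SE). These low genes also overlapped, and their SE would allow differences of several percent either way. Summed, the 5 beta genes had 1566 ± 6.43 CPM in si-N6AMT1 and 1608 ± 6.50 CPM in si-CN (SD, n = 3 each), without overlap (log2 -0.039 ± 0.018, SE).

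**Figure D2:**
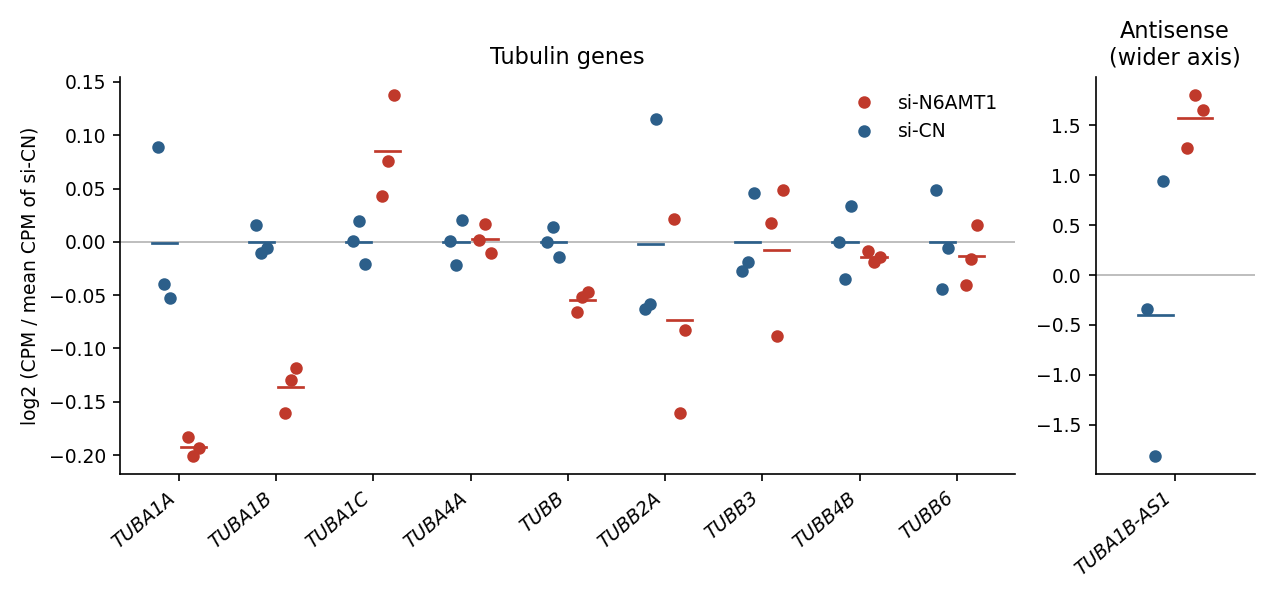
The vertical axis gives log2 of CPM over the mean CPM of si-CN for each gene, and each point is 1 library, with lines at the group mean of the log2 values. TUBA1A, TUBA1B and TUBB lie below their controls, TUBA1C above, and the groups of the other tubulins overlap. TUBA1B-AS1 has its own, wider axis, where the control libraries lie far apart.

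In all, 5 of the 10 genes were called, 3 lower (TUBA1A, TUBA1B and TUBB) and 2 higher (TUBA1C and TUBA1B-AS1), and the same 5 did not overlap between groups. Over all 17320 genes tested, 21.3% were called (11.5% lower and 9.78% higher), and 34.9% did not overlap between groups. Because the set was chosen on this contrast, nothing is read from these shares. The median log2 fold change of the 9 tubulins was -0.014, against 0.0039 over all genes tested. Their range, from -0.19 to 0.086, sits beside a median absolute change of 0.11 over all genes.

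**Figure D3:**
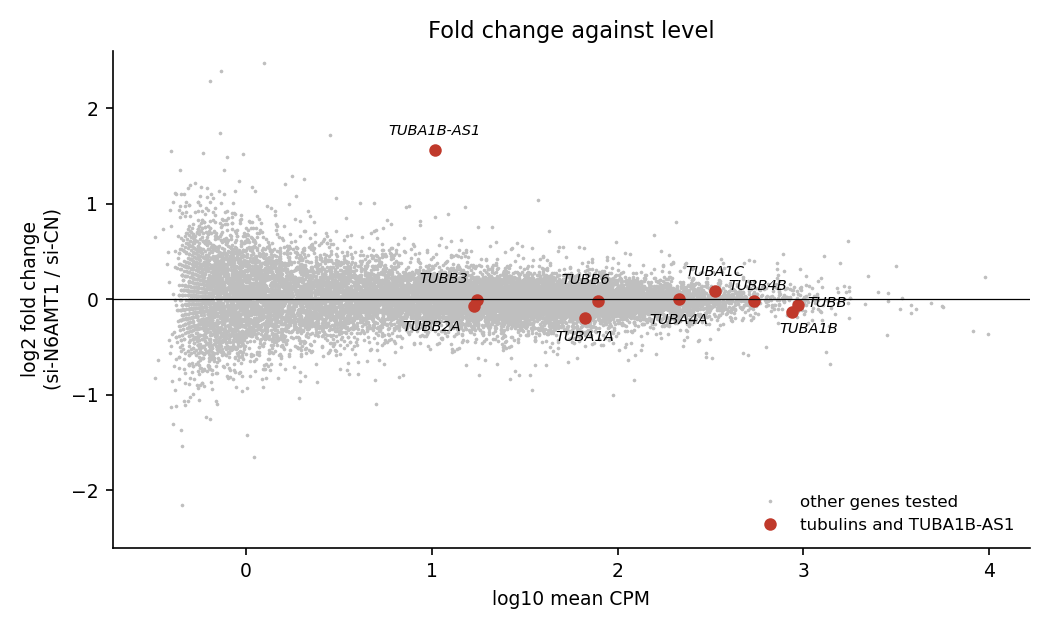
The horizontal axis gives log10 of the mean CPM and the vertical axis the log2 fold change of si-N6AMT1 over si-CN, with 1 point per gene tested. The 9 tubulins lie between -0.19 and 0.086, from TUBB2A at the low end of levels to TUBB at the high end. TUBA1B-AS1, chosen for its rise, lies at 1.56, apart from genes of its level.

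To compare levels between genes, counts were divided by the length of each reference transcript and scaled to the same total in every library (TPM). By CPM, without length, TUBB was above TUBA1B in both groups. By TPM in si-CN, TUBA1B was highest at 1244 ± 4.04 TPM, followed by TUBB at 840 ± 12.3 and TUBB4B at 775 ± 21.2 (SD, n = 3). TUBA1C followed at 254 ± 4.41 TPM and TUBA4A at 233 ± 4.48. TUBA1A and TUBB6, at 94.9 ± 4.06 and 93.3 ± 2.08 TPM, did not differ beyond their spread. Nor did TUBB2A and TUBB3, at 23.7 ± 1.88 and 22.8 ± 0.839 TPM. TUBA1B-AS1, at 17.1 ± 14.5 TPM, ranged from 4.88 to 33.04 across control libraries, so its place at the end of the order is not fixed. Its TPM also rests on a reference transcript of 675 bases, though its 10 transcripts cover 4620 exonic bases. By CPM in si-CN it had 5.17, against 17.2 for TUBB2A and 17.5 for TUBB3. All other neighbours in this order did not overlap across the 3 libraries.

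TUBA1B made up 68.0% ± 0.0488 of all alpha-tubulin TPM in si-CN and 65.8% ± 0.110 in si-N6AMT1 (SD, n = 3 each). TUBA1C held 13.9% ± 0.239 and 15.7% ± 0.328 in the same order, TUBA4A 12.7% ± 0.207 and 13.6% ± 0.257, and TUBA1A 5.19% ± 0.237 and 4.83% ± 0.0916. By TPM, the beta pool was mostly TUBB and TUBB4B, with TUBB at 47.8% ± 0.825 in si-CN and 47.1% ± 0.249 in si-N6AMT1, and TUBB4B at 44.1% ± 0.706 and 44.8% ± 0.224. By CPM, without transcript length, their shares in si-CN were 59.0% ± 0.795 and 33.9% ± 0.670, so the near-even split rests on the length scaling. TUBB6 held 5.32% ± 0.155 of the beta pool in si-CN, and TUBB2A and TUBB3 1.35% ± 0.0886 and 1.299% ± 0.0296. The remaining alpha and beta genes each made up at most 0.054% of their pool. Summed alpha-tubulin TPM were 1708, 1707 and 1733 in si-N6AMT1 against 1822, 1827 and 1833 in si-CN. Summed beta-tubulin TPM were 1726, 1694 and 1714 against 1734, 1752 and 1782. The ratio of alpha to beta message was 0.989, 1.01 and 1.01 in si-N6AMT1 and 1.05, 1.04 and 1.03 in si-CN. All 3 measures were lower in every si-N6AMT1 library than in any si-CN library.

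**Figure D4:**
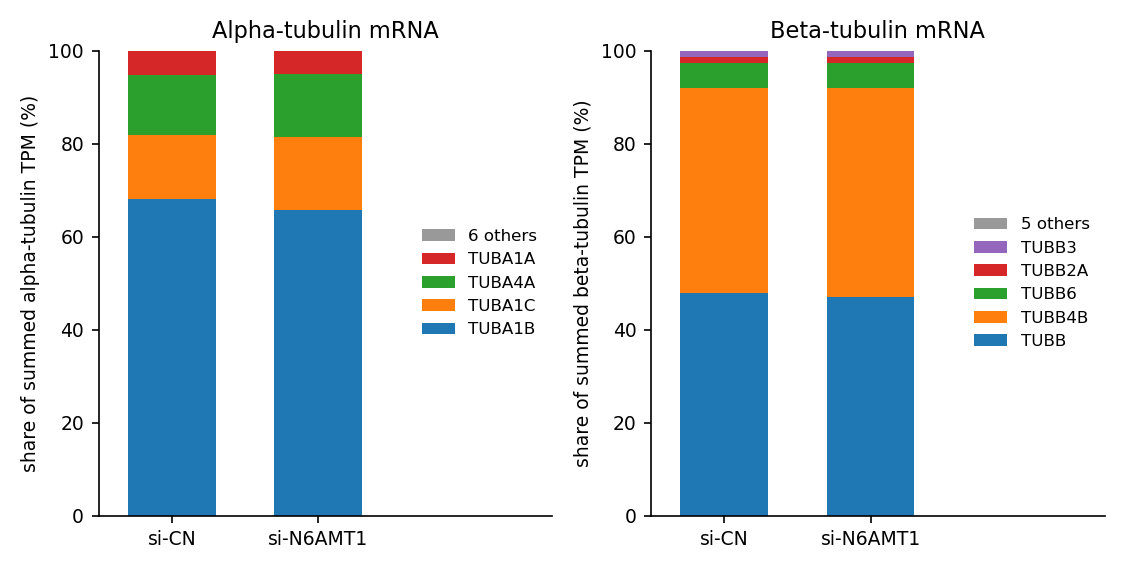
Stacked bars give the mean share of each isotype in summed TPM of alpha-tubulin (left) and beta-tubulin genes (right), in percent, for 3 libraries a group. TUBA1B fills 68.0% of the alpha pool in si-CN and 65.8% in si-N6AMT1, while TUBB and TUBB4B together fill most of the beta pool in both groups.

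The remaining tubulin genes were measured from a fixed list and tested against all genes. Of 15, only 6 had enough counts, and none was called, with 1 at an unadjusted p under 0.05, and 0 were called by DESeq2 or limma-voom. That gene was TUBG1, the gamma-tubulin on which microtubules are nucleated, at 71.3 ± 1.89 CPM in si-N6AMT1 and 75.5 ± 1.11 in si-CN (SD, n = 3 each, log2 -0.082 ± 0.033, SE, edgeR FDR = 0.083). TUBB2B, the near copy of TUBB2A, had 0.609 and 0.513 CPM (edgeR FDR = 0.68). TUBB4A had at most 1 count in any library. Of 47 tubulin pseudogenes, 31 had no count at all, none had over 13 counts, and none passed the filter.

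Tubulin chains are folded by prefoldin, the chaperonin CCT and the tubulin cofactors. Of 22 such genes, 6 were called, 4 higher and 2 lower (27.3%), with a median log2 fold change of 0.011. PFDN2, a prefoldin subunit, rose from 77.7 ± 0.814 to 86.5 ± 0.407 CPM (SD, n = 3 each, log2 0.15 ± 0.03, SE, edgeR FDR = 0.00057). CCT2, a chaperonin subunit, fell from 195 ± 1.63 to 183 ± 1.02 CPM (log2 -0.089 ± 0.023, SE, edgeR FDR = 0.0079). PFDN5 rose by 0.088 ± 0.030 on the log2 scale (SE, edgeR FDR = 0.038), with groups that overlapped.

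In the autoregulation list, 4 of 12 genes were called and all 4 were lower (33.3%, median log2 -0.035). They were SCAPER, which links TTC5 to the deadenylase on tubulin messages, and CNOT1, CNOT6L and CNOT8 of that CCR4-NOT deadenylase. CNOT1, its scaffold, fell from 306 ± 5.79 to 286 ± 3.00 CPM (SD, n = 3 each, log2 -0.096 ± 0.023, SE, edgeR FDR = 0.0035). CNOT6L fell from 46.1 ± 0.771 to 41.3 ± 1.01 CPM (log2 -0.16 ± 0.04, SE, edgeR FDR = 0.0051). CNOT8 fell by 0.086 ± 0.024 on the log2 scale (SE, edgeR FDR = 0.013). SCAPER fell from 20.9 ± 0.477 to 18.4 ± 0.830 CPM (log2 -0.18 ± 0.06, SE, edgeR FDR = 0.035). TTC5 had 14.7 ± 1.21 CPM in si-N6AMT1 and 14.03 ± 1.09 in si-CN and was not called (log2 0.069 ± 0.078, SE, edgeR FDR = 0.59).

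Of 12 genes of the gamma-tubulin ring complex and its anchors, 2 were called, both lower (16.7%, median log2 -0.053). AKAP9, which anchors the complex at the Golgi, fell from 90.3 ± 2.44 to 80.6 ± 0.743 CPM (SD, n = 3 each, log2 -0.17 ± 0.03, SE, edgeR FDR = 0.00038). NEDD1, which brings it to spindles, fell from 103 ± 2.42 to 93.5 ± 0.653 CPM (log2 -0.14 ± 0.03, SE, edgeR FDR = 0.0011). Of 17 tested tail-modifying enzymes, 3 were called and all were lower (17.6%, median log2 0.012). These were TTLL7, a polyglutamylase (log2 -0.27 ± 0.05, SE, edgeR FDR = 0.00030), AGBL5, a carboxypeptidase that removes glutamates (log2 -0.18 ± 0.05, SE, edgeR FDR = 0.0073), and SIRT2, a deacetylase that acts on tubulin (log2 -0.17 ± 0.06, SE, edgeR FDR = 0.038).

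Of 26 tested microtubule-associated genes, 6 were called, 4 lower and 2 higher (23.1%, median log2 -0.0033). MAPRE2, an end-binding protein, fell from 34.5 ± 2.19 to 29.6 ± 1.35 CPM (SD, n = 3 each, log2 -0.22 ± 0.05, SE, edgeR FDR = 0.0031). CLASP2, which stabilises plus ends, fell by 0.13 ± 0.03 on the log2 scale (SE, edgeR FDR = 0.0087). CLIP1, a plus-end tracking protein, rose from 104 ± 3.72 to 111 ± 1.13 CPM (log2 0.096 ± 0.030, SE, edgeR FDR = 0.023). The shares called in these lists, from 16.7% to 33.3%, stand beside 21.3% of all genes. Of the 24 genes called in these lists and among the neighbours described next, 6 (AKAP9, CNOT1, MAPRE2, NEDD1, PFDN2 and TTLL7) were called under all 12 alternatives, while DESeq2 lost 17 of the 24.

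Genes within 250 kb of TUBA1B were also measured. Of 30 in the table besides the cluster itself, 17 were tested and 3 were called, all higher (17.6%, against 21.3% of all genes), and DESeq2 called 0 of them. RHEBL1, a small GTPase gene, rose from 8.51 ± 0.294 to 10.9 ± 0.865 CPM (SD, n = 3 each, log2 0.36 ± 0.09, SE, edgeR FDR = 0.0045). LMBR1L rose from 29.5 ± 1.42 to 32.8 ± 1.05 CPM (log2 0.15 ± 0.05, SE, edgeR FDR = 0.027). ENSG00000258232, a long non-coding RNA that shares 13.5% of TUBA1C words on the opposite strand, rose from 39.8 ± 2.20 to 44.01 ± 2.81 CPM with groups that overlapped (log2 0.14 ± 0.05, SE, edgeR FDR = 0.039). The other 14 had an FDR from 0.061 (WNT10B) to 0.996 (ARF3), and they included TROAP, FKBP11, C1QL4, DNAJC22, CCDC65, SPATS2, PRPH, ENSG00000272822, PRKAG1, DDN, RPL32P27 and KMT2D. The median log2 fold change of the 17 was 0.089, and none was close to the 1.56 of TUBA1B-AS1, which was chosen for its rise.

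TUBA1B-AS1 was then set beside other RNAs named as antisense. Of 602 tested, 22 were called, 15 higher and 7 lower (3.65%, against 21.3% of all genes), with a median log2 fold change of 0.037. DESeq2 called 5 antisense RNAs. The 602 RNAs tested were scarce, with a median of 1.55 CPM against 17.5 CPM over all genes tested, which limits what can be called. The 3 called with the largest change were BCAN-AS1 (log2 1.01 ± 0.14, SE, edgeR FDR = 7.78e-06), HERPUD2-AS1 (0.70 ± 0.19, SE, edgeR FDR = 0.0087) and ATP2B1-AS1 (0.59 ± 0.17, SE, edgeR FDR = 0.016). Among 528 antisense RNAs whose namesake gene was also tested, none exceeded TUBA1B-AS1 in log2 fold change, an order that the choice of TUBA1B-AS1 for its rise largely fixed. Of these 528, 15 were called higher, and 11.5% of all genes tested were called lower. In 3 of these pairs the antisense RNA rose while its gene fell: HERPUD2-AS1, NNT-AS1 and CERS6-AS1 (edgeR FDR = 0.0087, 0.022 and 0.042). CERS6-AS1 overlapped between groups. Their genes fell by 0.21, 0.17 and 0.20 on the log2 scale (edgeR FDR = 0.010, 0.021 and 0.00024). In 1 pair, CDKN2B-AS1 fell (log2 -0.30 ± 0.10, SE, edgeR FDR = 0.043) while CDKN2B rose (0.21 ± 0.04, SE, edgeR FDR = 0.00076).

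Finally, the genes whose values over the 6 libraries ran closest to TUBA1B were listed, by the root mean square difference of centred log2 CPM. These were JMJD6 (0.0087), KHNYN (0.012), CCNB1 (0.012), HACD3 (0.013) and HLTF (0.014), with log2 fold changes from -0.15 to -0.11. For TUBA1B-AS1 the closest were ENSG00000260997 (0.40), KCNE1 (0.43), ENSG00000287014 (0.55), GABRQ (0.56) and ENSG00000285565 (0.59). Those distances are large, and 4 of these 5 had a mean of at most 2.04 CPM. The fifth, ENSG00000285565, a long non-coding RNA of chromosome 6, had a similar level, with 17.3, 20.2 and 22.5 CPM in si-N6AMT1 and 12.5, 4.52 and 13.5 CPM in si-CN. It was listed for its likeness over these same libraries, so the shared order of the controls is no separate observation.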

How the data were processed

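RNA-seq libraries of cells labelled MDA-MB-453 were grouped by sample title (3 si-N6AMT1, 3 si-CN). The authors trimmed paired-end reads with Trim Galore, estimated counts with kallisto v0.46.0 and GENCODE on hg19, and deposited estimated counts summed per gene, as whole numbers without normalization. Totals of 19.7 to 21.3 M counts limit precision for low genes.

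The 10 genes and all gene lists were chosen with earlier results of these data known. Of 62438 identifiers, 62149 matched GENCODE v44 on GRCh37. R v4.3.3 with edgeR v4.0.16 was run with its expression filter (minimum count 10), TMM and the quasi-likelihood test on all 6 libraries. SE is the absolute log2 fold change over the square root of F. TPM used reference transcript lengths. The procedure was tested on simulated counts. Alternatives were RLE scaling, no filter, DESeq2 v1.42.0, limma-voom (limma v3.58.1), a block on replicate number (also with GC correction), and each library left out. Chi-square per degree of freedom between library pairs of 1 group was 1.37 to 1.77, above sampling noise, so none was merged. All 6 columns matched a sample by name.

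Genes named from lists were up to 3 called genes with the lowest FDR per list, fixed genes (TTC5, SCAPER, TUBG1, TUBB2B and TUBB4A), all tested neighbours, the 3 called antisense RNAs with the largest change, and the 5 genes nearest in pattern to TUBA1B and TUBA1B-AS1. Some items are not reported here, and marker sums leave them out. Opposite antisense pairs were named after their values were seen.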

Additional observations from a re-analysis of the deposited data

How the results depend on the processing

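No value of a named tubulin that was called changed direction under any alternative. Of 125 recomputed values of the 10 genes, 119 moved by less than 1 SD, the SD of that gene's log2 values within groups. The other 6 were TUBB4B under the block with GC correction (-0.047) and the 5 sums of TUBA1B or TUBB with their relatives, given above. For TUBA1B-AS1 that SD was 0.99, so its shifts from log2 1.56 to 2.49, 1.94 (limma-voom) and 1.13 counted among the 119. Same-numbered libraries did not deviate together over the genes compared (correlations -0.12, -0.089 and 0.0067), and the main fit did not pair them. A small or gene-specific effect of pairing could not be seen this way. With the replicate block, 1804 genes were called lower and 1522 higher, 4 of the 10 genes, 3 folding genes and 3 microtubule-associated genes. With the block and GC correction, 1 other tubulin, 2 folding, 2 autoregulation, 3 microtubule-associated and 1 neighbouring gene were called. DESeq2 called 1139 genes lower and 796 higher in all. It called 2 folding, 1 autoregulation, 1 tail-modifying and 1 microtubule-associated gene, 0 neighbours (against 3 by edgeR, with 4 at an unadjusted p under 0.05) and 5 antisense RNAs, and its adjusted p for N6AMT1 was not given. Without the expression filter 1 pseudogene, TUBBP10, was called at no more than 13 counts. With each library left out in turn, 3 to 4 of the 10 genes were called (2 to 3 of the tubulins), the lowest number without si-N6AMT1 replicate 3 or si-CN replicate 3. Without single libraries, calls ran from 2 (si-N6AMT1 replicate 2 or si-CN replicate 3, with 3 for si-CN replicate 1) to 4 for folding, 2 (si-N6AMT1 replicate 1 or si-CN replicate 3) to 4 for autoregulation, 1 (si-CN replicate 2) to 3 for tail-modifying and 3 (si-N6AMT1 replicate 2 or 3, or si-CN replicate 3) to 5 for microtubule-associated genes, 0 to 1 (si-CN replicate 2) for pseudogenes, 1 (si-N6AMT1 replicate 2 or si-CN replicate 3) to 4 for neighbours and 11 (si-CN replicate 3) to 21 for antisense RNAs. Ranked by CPM without gene length, TUBA1B made up 59.9% of the alpha pool and TUBB 59.0% of the beta pool in si-CN, since TUBB and TUBA1C transcripts are longer. The causes of the other shifts were not tested. Fitted values of TUBA1B-AS1, TUBB2A and TUBB3, at no more than 396 counts a library, were the least precise.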
